A study of Saccharomyces cerevisiae with 4 samples.

Results

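The genes described here are the autophagy genes of budding yeast, taken as every row of the value table whose open reading frame carries an R64 standard symbol made of ATG and a number. The rule found 36 of the 6211 rows, and all 36 had a value on every array and entered the test of 6130 genes. Another gene that fits the rule, ATG44, had no row and was not analysed here. Each of the 4 arrays compared a strain labelled GCN2c with wild type (WT), both harvested in log phase from 50 mL cultures in rich medium (YPD) at 28 °C at an absorbance (Ab660) of 0.6. GCN2 encodes the kinase that phosphorylates the translation initiation factor eIF2 when amino acids run short. The design text calls GCN2c an overexpressing strain and the sample labels call it a mutant. The promoter or allele, and the strain background, are not given in the sources used here.

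Replicates 1 and 3 carried GCN2c RNA in Cy5, and replicates 2 and 4 carried it in Cy3. The latter arrays held nearly the same values, with a largest difference of 0.061 among the ATG genes, and were averaged, as the Cy3 pair, and counted as 1 sample. This leaves n = 3, of which 2 carry the Cy5 orientation. Although the design text names biological replicates, strain and dye are unequally balanced over them, and the number of arrays limits the precision. Values are given on the log2 scale with GCN2c as the assumed numerator, so 1 unit is a 2-fold difference. Neither this direction nor the base of the logarithm is stated in the labels, and the opposite direction would exchange higher and lower everywhere. The GCN2 spot itself stood at -0.39 on replicate 1, 0.10 on replicate 3 and -0.68 on the Cy3 pair, a mean of -0.33 ± 0.39 (SD, n = 3; limma adjusted p = 0.453), so the named overexpression was not seen there.

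Autophagy carries cytoplasm to the vacuole, the degradative compartment of yeast, inside a double-membraned vesicle called the autophagosome. The Atg1 kinase complex starts the process, vesicles that carry Atg9 seed a membrane, a phosphatidylinositol 3-kinase marks it, and ubiquitin-like proteins are attached to it as it grows. In rich medium the TORC1 kinase holds bulk autophagy low, while a selective route, cytoplasm-to-vacuole targeting (Cvt), goes on delivering vacuolar enzymes. Gcn4, the activator whose translation Gcn2 promotes, is known to be needed for full autophagy in amino acid starvation.

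No ATG gene passed the test, although most stood above 0. Of the 36, none rose and none fell by limma with adjustment over all genes, against 2.06% of the 6130 genes tested that passed in either direction. One-class SAM, the test named in the design text, likewise called 0 of the 36, against 3.34% of the genes it tested. At an unadjusted p under 0.05 there were 12 ATG genes, or 33.3%, all with a positive mean, against 20.7% of all genes in either direction. The adjusted p of these 12 lay between 0.0841 and 0.241, and the lowest belonged to ATG8. The smallest mean among all genes that rose was 1.15, above the highest ATG mean of 1.02.

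As a group the ATG genes lay to the positive side of the other genes. Of the 36, 30 had a mean above 0, compared with 44.1% of all genes tested. The median member stood at 0.29, where the median of all genes was -0.06. By array, the ATG median came to 0.38 for replicate 1, 0.26 for replicate 3 and 0.45 for the Cy3 pair, and the median of all genes to -0.03, -0.05 and -0.09. Every replicate thus had the ATG median above that of all genes. In all, 17 of 36 members were positive on every replicate, where 18.8% of all genes were, and 2 were negative on every replicate, where 27.8% of all genes were. In the order of all 6130 means, 21 ATG genes lay above the 75th percentile, 7 of them above the 90th, while 3 lay below the 25th and 0 below the 10th. The median moved with the arrays used: without replicate 3 it was 0.45. With the sign of the Cy3 pair turned against the others, which the labels do not settle, it was 0.11 beside 0.03 for all genes, and 23 of 36 members were above 0.

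**Figure D1:**
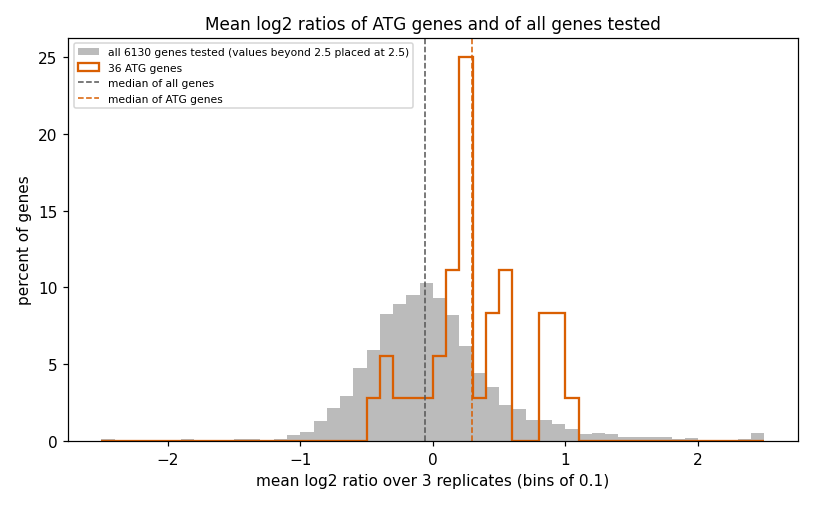
Percent of genes (vertical axis) in bins of 0.1 of the mean log2 ratio over 3 replicates (horizontal axis), for the 36 ATG genes (orange outline) and all 6130 genes tested (grey), with dashed medians. The ATG median is 0.29 and that of all genes -0.06, and no ATG mean exceeds 1.02.

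The Atg1 kinase complex receives the TORC1 signal, and all 5 of its genes had a positive mean, with 0 past the test. ATG1, the protein kinase itself, stood at 0.56 on replicate 1, 1.14 on replicate 3 and 1.37 on the Cy3 pair. All were positive, and replicate 1 was the lowest. The mean of 1.02 ± 0.42 (SD, n = 3; limma adjusted p = 0.105) was the highest of the 36 members, a 2.03-fold difference with a 95% interval of 0.46 to 1.59 on the log2 scale before adjustment. ATG13, the regulatory subunit that TORC1 phosphorylates, had a mean of 0.29 with a negative value (-0.17) on replicate 3. Among the scaffold subunits, ATG17 was positive throughout, from 0.22 to 0.69, with a mean of 0.44. ATG31, a partner of Atg17, ranged from -0.22 to 0.55 around a mean of 0.17.

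ATG29, which forms the scaffold with Atg17 and Atg31, was the least reproducible member. It stood at -0.52 on replicate 1, -0.80 on replicate 3 and 1.94 on the Cy3 pair, so both arrays with GCN2c in Cy5 lay below 0 and those with GCN2c in Cy3 far above it. The mean of 0.21 ± 1.51 (SD, n = 3; limma adjusted p = 0.870) is not a measure of either. In the R64 gene table ATG29 is the 1 member whose gene overlaps that of a flanking protein-coding gene, SET6, whose mean was -0.56. Whether the spot of one picked up RNA of the other was not tested.

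Genes of the Atg9 vesicles and of lipid transfer were led by ATG9, which encodes the membrane-spanning protein of those vesicles. ATG9 stood at 0.96 on replicate 1, 0.58 on replicate 3 and 0.86 on the Cy3 pair. The 3 values lay close together and well above 0, with a mean of 0.80 ± 0.20 (SD, n = 3; limma adjusted p = 0.107; 95% interval 0.34 to 1.27). ATG2, which moves lipids into the growing membrane, was smaller and steady, from 0.13 to 0.28 around 0.21. ATG18, the phosphoinositide-binding partner of Atg2, had a mean of 0.12 and a negative value (-0.08) with GCN2c in Cy3. The genes of the Atg9 traffic factors were ATG23, at a mean of 0.21, and ATG27, at -0.06, and both changed sign between replicates.

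The kinase complex that makes phosphatidylinositol 3-phosphate at the forming autophagosome has 2 subunits with ATG names. ATG14, which directs the complex to autophagy, stood at 0.52 on replicate 1, 0.64 on replicate 3 and 1.63 on the Cy3 pair. It was positive on every replicate, but the Cy3 pair lay well above both other values. The mean was 0.93 ± 0.61 (SD, n = 3; limma adjusted p = 0.161). ATG38, which holds the complex together, had a mean of 0.29 with replicate 3 at -0.31. The subunits that the complex shares with vacuolar sorting had means nearer 0, but with mixed signs over replicates, and none passed the test. VPS34, the lipid kinase, had a mean of -0.03 ± 0.48 and VPS15, its regulatory kinase, 0.10 ± 0.42 (SD, n = 3). VPS30, also known as Atg6, had a mean of 0.03 ± 0.21 (SD, n = 3).

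The ubiquitin-like conjugation genes were the most divided group, with 4 means above 0 and 4 below, and 0 past the test. ATG8 encodes the ubiquitin-like protein that is joined to a lipid and coats the autophagosome. Its values were 1.05 on replicate 1, 0.69 on replicate 3 and 1.26 on the Cy3 pair, all well above 0. The mean of 0.998 ± 0.286 (SD, n = 3; 95% interval 0.499 to 1.498) corresponds to a 1.997-fold difference, and its limma adjusted p of 0.0841 was the lowest among the members.

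ATG5, whose product joins Atg12 in the ligase for Atg8, stood at 1.21 on replicate 1, 1.09 on replicate 3 and 0.65 on the Cy3 pair. All were positive, and the value with GCN2c in Cy3 was the lowest. The mean was 0.98 ± 0.29 (SD, n = 3; limma adjusted p = 0.0893). On the arrays with GCN2c in Cy5 alone it was 1.15 and passed (limma adjusted p = 0.0338), in a fit where strain and dye cannot be told apart and 4.55% of all genes rose.

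The enzymes and other proteins of the same conjugation pathways stood lower. ATG12, the second ubiquitin-like protein, was positive throughout at a smaller mean of 0.25. ATG7, the activating enzyme for both, ranged from -0.86 to 0.93 around 0.06. ATG3, the conjugating enzyme for Atg8, ranged from -1.55 on replicate 1 to 0.85 on the Cy3 pair, with a mean of -0.15. ATG10, the conjugating enzyme for Atg12, had a mean of -0.29 and was lowest, at -0.91, with GCN2c in Cy3. The spread over replicates was larger than the mean for each of these last 3 genes.

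Of the 3 lowest members, 2 belong to this group. ATG4, the protease that processes Atg8 and frees it from lipid, stood at -0.50 on replicate 1, -0.31 on replicate 3 and -0.21 on the Cy3 pair. It was below 0 on every replicate, with a mean of -0.34 ± 0.15 (SD, n = 3; limma adjusted p = 0.345). ATG16, which holds the Atg12-Atg5 conjugates together, stood at -0.10, -1.36 and 0.39 on the same replicates. Replicate 3 set its mean of -0.36 ± 0.90, which was 0.14 without that replicate.

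Genes for selective autophagy, which recognises particular cargo, formed the largest role group and had the highest share of genes positive on every replicate. All 11 had a mean above 0. Of these, 8 were positive on every replicate, compared with 47.2% of all ATG genes and 18.8% of all genes. The role groups came from a list written by hand. The group median was 0.44, with medians of 0.41, 0.48 and 0.55 on replicate 1, replicate 3 and the Cy3 pair. By limma over all genes 0 of the 11 passed, 6 (54.5%) were at an unadjusted p under 0.05, compared with 20.7% of all genes, and 0 were called by SAM.

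ATG19 encodes the receptor that ties the cargo enzymes of the Cvt route to Atg8. It stood at 0.73 on replicate 1, 0.93 on replicate 3 and 0.87 on the Cy3 pair, so that the replicates agreed closely. The mean was 0.84 ± 0.10 (SD, n = 3; limma adjusted p = 0.0934; 95% interval 0.40 to 1.28). ATG34, which encodes a related receptor for alpha-mannosidase and neighbours ATG19 in the R64 gene table, stood at 0.34, 0.48 and 0.74, with a mean of 0.52 ± 0.20 (SD, n = 3; limma adjusted p = 0.211). ATG11, the scaffold that gathers receptors with their cargo, had a mean of 0.38 and a value of -0.02 on replicate 3.

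Organelle receptors were also above 0. ATG40, a receptor for endoplasmic reticulum, had the smallest spread of all members: 0.52 on replicate 1, 0.57 on replicate 3 and 0.50 on the Cy3 pair, a mean of 0.53 ± 0.03 (SD, n = 3; limma adjusted p = 0.181). ATG36, the receptor for peroxisomes, stood at 0.41, 0.59 and 0.75 on the same replicates, with a mean of 0.58 ± 0.17 (SD, n = 3; limma adjusted p = 0.174). ATG39, a receptor for the nuclear envelope and endoplasmic reticulum, ran from 0.03 on replicate 3 to 0.81 on replicate 1, around 0.40.

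The genes for mitophagy, the removal of mitochondria, differed between the 2 members. ATG33, a mitochondrial outer membrane protein, stood at 1.33 on replicate 1, 1.00 on replicate 3 and 0.25 on the Cy3 pair, so it was much lower with GCN2c in Cy3. The mean was 0.86 ± 0.55 (SD, n = 3; limma adjusted p = 0.166). On the arrays with GCN2c in Cy5 alone it was 1.17 and passed (limma adjusted p = 0.0371), with strain and dye again inseparable. ATG32, the mitophagy receptor, stayed near 0, from -0.16 to 0.29 around a mean of 0.09.

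The remaining genes of the selective group were ATG20, ATG21 and ATG45. ATG20, a sorting nexin of the Cvt route, stood at 0.34 on replicate 1, 0.43 on replicate 3 and 0.55 on the Cy3 pair, with a mean of 0.44 ± 0.10 (SD, n = 3; limma adjusted p = 0.241). SNX4, whose product pairs with Atg20, had a mean of -0.21 and did not pass either. ATG21, a phosphoinositide-binding protein that helps to place Atg8 conjugation, was positive throughout with a mean of 0.30. ATG45, a receptor for glycogen, ranged from -0.86 on replicate 1 to 1.53 on the Cy3 pair, and its mean of 0.29 ± 1.19 carries little information.

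**Figure D2:**
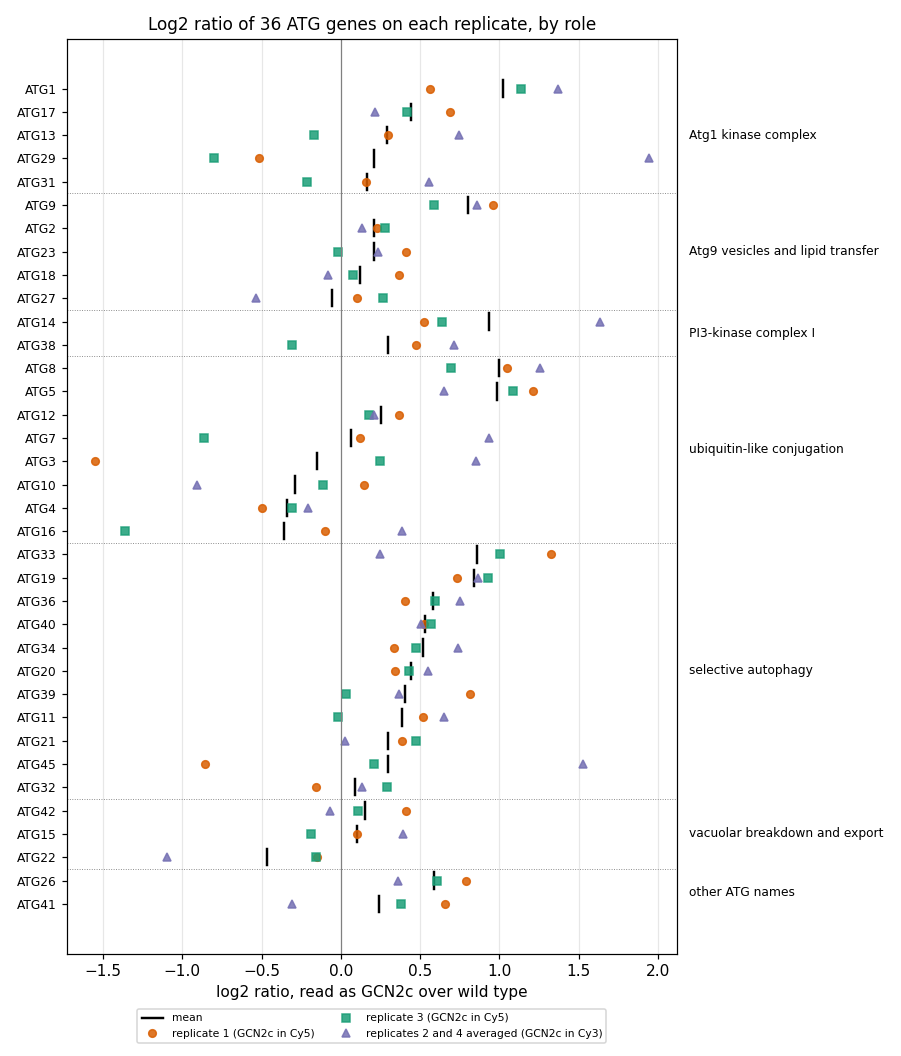
Log2 ratio, read as GCN2c over wild type (horizontal axis), of each of the 36 ATG genes, grouped by role. Circles are replicate 1, squares replicate 3, triangles replicates 2 and 4 averaged, and black bars the mean over these 3. All 11 selective autophagy genes have a mean above 0, while the conjugation genes divide 4 and 4, and ATG29, ATG3 and ATG45 are spread widely.

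Members that act inside the vacuole were close to or below 0. ATG22, which exports amino acids released by breakdown, was the lowest of all 36. It stood at -0.15 on replicate 1, -0.16 on replicate 3 and -1.10 on the Cy3 pair. All were negative, but only the arrays with GCN2c in Cy3 lay far from 0, and the mean was -0.47 ± 0.54 (SD, n = 3; limma adjusted p = 0.362; 95% interval -1.11 to 0.18). ATG15, the lipase that opens autophagic bodies, had a mean of 0.10, and ATG42, a vacuolar carboxypeptidase, 0.15, both with mixed signs.

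A further 2 genes have ATG names with other or less defined roles. ATG26 encodes a sterol glucosyltransferase that is required for autophagy of peroxisomes in another yeast, Pichia pastoris. It stood at 0.79 on replicate 1, 0.60 on replicate 3 and 0.36 on the Cy3 pair, with a mean of 0.58 ± 0.21 (SD, n = 3; limma adjusted p = 0.179). ATG41, which takes part in autophagosome formation, was positive with GCN2c in Cy5, at 0.66 and 0.38, and negative with GCN2c in Cy3, at -0.31.

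The values by replicate show how far the order of the ATG genes depended on the array. Across the 36 genes, replicates 1 and 3, which share a dye orientation, correlated at Pearson r = 0.512 (Spearman rho = 0.657). Replicate 2 correlated with replicate 1 at r = -0.031 (rho = 0.122) and with replicate 3 at r = 0.111 (rho = 0.209). These are descriptions across genes that share arrays, with no p-value. Over all genes the same pairs had r = 0.449, 0.183 and 0.294. So the ATG genes had a similar order on the arrays of one dye orientation and little common order across orientations.

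With the signs as deposited, most members were above 0 in both orientations. Positive values were held by 29 of 36 members on replicate 1, 24 on replicate 3 and 29 on the Cy3 pair, whereas the shares over all genes with 3 values were 47.3%, 45.7% and 43.6%. If the Cy3 pair were turned, 7 members instead of 29 would be positive on it. Of the 21 members positive on both arrays with GCN2c in Cy5, 17 were also positive with GCN2c in Cy3. That share was about the same as the 29 of 36 over all members. Of all genes positive on both arrays with GCN2c in Cy5, 1110 of 1943 were also positive with GCN2c in Cy3, beside 43.6% overall. The value with GCN2c in Cy3 lay above both others for 17 members and below both for 13, while over all genes 31.3% lay above and 49.1% lay below. The spread between replicates was ordinary for most members: their median SD was 0.29, that of all genes was 0.33, and 5 members (ATG29, ATG3, ATG45, ATG16 and ATG7) had an SD over 0.8. The part of the dye in these differences was not tested.

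**Figure D3:**
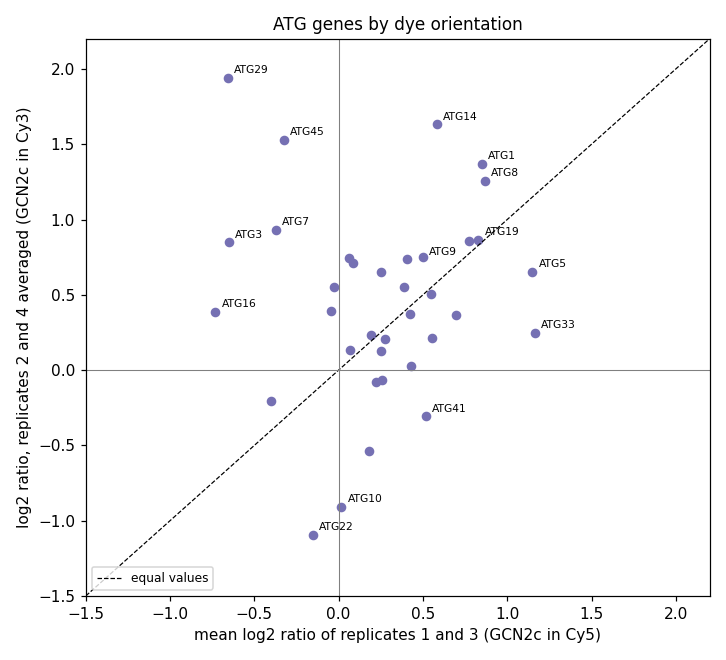
Each point is an ATG gene, with the mean log2 ratio of replicates 1 and 3 (GCN2c in Cy5) on the horizontal axis and the log2 ratio of replicates 2 and 4 averaged (GCN2c in Cy3) on the vertical axis. The dashed line marks equal values. ATG1, ATG8, ATG9 and ATG19 lie above 0 on both axes, and ATG29, ATG45, ATG7, ATG3 and ATG16 lie below 0 on one and above it on the other.

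The count of 0 depended on how the arrays were treated. When a dye term was added, 6 members rose (ATG1, ATG5, ATG8, ATG9, ATG14 and ATG19) against 5.44% of all genes, with the residual spread taken from replicates 1 and 3 alone. With the 4 columns as 4 replicates, which counts the near-identical pair as separate samples, 11 members rose, against 7.70% of all genes. For 12 members the 95% interval reached 1 or more, so a 2-fold higher level is within it, and for the other 24 it ended below that.

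The genes that flank the members were centred close to the median of all genes. The nearest protein-coding neighbours in the R64 gene table that were tested and are not themselves members numbered 67. Their median was -0.05, and they ranged from -0.86 to 0.92. Of the 67, 29 had a mean above 0, a share close to the 44.1% of all genes. By limma over all genes 0 of the 67 passed, against 2.06% of all genes tested. ATG1 lies between GTS1, at 0.15, and TOS3, at -0.13. ATG8 lies between NUP170, at 0.22, and ILS1, at -0.01, and ATG9 between RPC53, at -0.36, and NOP14, at -0.53.

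Autophagy also needs genes that have no ATG name, and 73 of these were examined as partners. Of the 73, 2 rose and 0 fell by limma (background 1.73% risen), 11 (15.1%, below the 20.7% of all genes) were at an unadjusted p under 0.05, and the median was 0.13. They were AMS1, from the list of Cvt cargo, receptors and kinases, and PRB1, from the list of vacuolar hydrolases. AMS1, the vacuolar alpha-mannosidase that Atg19 and Atg34 recognise, stood at 1.40 on replicate 1, 2.04 on replicate 3 and 1.93 on the Cy3 pair. All were far above 0, and AMS1 rose by 1.79 ± 0.34 (SD, n = 3; limma adjusted p = 0.0249), a 3.46-fold difference, although its limma adjusted p without replicate 3 was 0.0527. With the Cy3 pair turned it was at 0.50 and did not pass (limma adjusted p = 0.957).

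PRB1, vacuolar proteinase B, which is needed to break down autophagic bodies, stood at 2.22 on replicate 1, 2.69 on replicate 3 and 2.01 on the Cy3 pair. It rose by 2.31 ± 0.35 (SD, n = 3; limma adjusted p = 0.0144), a 4.95-fold difference, which was larger than the value of any ATG gene. With the Cy3 pair turned it was at 0.97 and did not pass (limma adjusted p = 0.932). PEP4, proteinase A, which activates the other vacuolar proteases, was at 0.18 and did not pass. PRC1, carboxypeptidase Y, was missing on replicate 1 and stood at 5.18 on replicate 3 and 1.39 on the Cy3 pair, so its mean of 3.28 ± 2.68 rests on 2 values that disagree (limma adjusted p = 0.174). PHO8, the vacuolar alkaline phosphatase used as an autophagy reporter, was negative throughout, at -0.93, -0.64 and -1.16, with a mean of -0.91 ± 0.26 (SD, n = 3; limma adjusted p = 0.1001).

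The other cargo of the Cvt route had means above 0 but below that of AMS1. APE1, the aminopeptidase that is its principal cargo, stood at 1.01 on replicate 1, 0.93 on replicate 3 and 0.31 on the Cy3 pair, with a mean of 0.75 ± 0.38 (SD, n = 3; limma adjusted p = 0.157). It passed on the arrays with GCN2c in Cy5 alone (limma adjusted p = 0.0466). In that fit 4.55% of all genes rose, and strain and dye cannot be told apart. APE1 did not pass without replicate 1 or without replicate 3 (limma adjusted p = 0.356 and 0.627). APE4, an aspartyl aminopeptidase, had a mean of 0.24 but a negative value (-0.35) on the Cy3 pair. LAP3, a cysteine aminopeptidase, had a mean of 0.28 and was positive throughout. VAC8, the vacuolar membrane protein that anchors Atg13, was at -0.23. In this list of 7 genes AMS1 was the 1 that passed.

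Of the 14 regulators of ATG transcription none passed limma over all genes. SAM called 1, GLN3, where it called 3.34% of all the genes it tested. At an unadjusted p under 0.05 were 3 (21.4%), close to the 20.7% of all genes. GLN3, a GATA activator of nitrogen-repressed genes, stood at 0.91 on replicate 1, 0.98 on replicate 3 and 1.05 on the Cy3 pair. The replicates differed by little, and the mean was 0.98 ± 0.07 (SD, n = 3; limma adjusted p = 0.0644). GAT1, another GATA activator, stood at 1.41, 1.10 and 0.62, with a mean of 1.05 ± 0.40 (SD, n = 3; limma adjusted p = 0.0974). GCN4 stood at 0.84, 0.57 and 0.37 and had a mean of 0.59 ± 0.23 (SD, n = 3; limma adjusted p = 0.180). Among genes of repressors of ATG transcription, UME6 was at 0.02 and RPD3 at -0.12, while RPH1 was at 0.49. Elsewhere in the list URE2 was at 0.41, MSN2 at -0.10 and MSN4 at -0.37. Of the 14 means, 8 were above 0 and 6 below. GLN3 passed on genes with values on all 4 arrays (limma adjusted p = 0.0486), where 2.52% of genes rose. GAT1 and GLN3 passed on the arrays with GCN2c in Cy5 alone (limma adjusted p = 0.0317 and 0.0484). In that fit 4.55% of all genes rose, and strain and dye cannot be told apart. Neither passed without replicate 1 (limma adjusted p = 0.138 for GLN3 and 0.231 for GAT1) or without replicate 3 (0.337 and 0.345). With the Cy3 pair turned, GLN3 was at 0.28 and GAT1 at 0.63. Neither passed there (limma adjusted p = 0.957 and 0.921).

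Other partner groups held no gene past the test, which 2.06% of all genes tested passed. Among 21 genes of TORC1 and its regulators, none was at an unadjusted p under 0.05, against 20.7% of all genes. SAM called 0 of them, against 3.34% of the genes it tested. Their median was 0.18, with TOR1, the kinase, at 0.32 and KOG1, its partner subunit, at 0.22. Among 16 genes of tethering and vacuole fusion the median was 0.11, and 6.25% were at an unadjusted p under 0.05. Only COG3, of a Golgi tethering complex, was at an unadjusted p under 0.05, at 0.74 on replicate 1, 0.72 on replicate 3 and 1.4965 on the Cy3 pair (mean 0.98 ± 0.44, SD, n = 3; limma adjusted p = 0.112). The 4 genes listed under general control, which leave out GCN4, all had a mean below 0, where 44.1% of all genes had a mean above 0. GCN2 and GCN1 had mixed signs, with GCN2 at 0.10 on replicate 3 and GCN1 at 0.02 on replicate 1. GCN20, a regulator of Gcn2, was at -0.82, -0.78 and -0.42, with a mean of -0.67 ± 0.22 (SD, n = 3; limma adjusted p = 0.148), and GCN3, an eIF2B subunit, at -0.20, -0.79 and -0.56, with a mean of -0.52 ± 0.30 (SD, n = 3; limma adjusted p = 0.234).

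**Figure D4:**
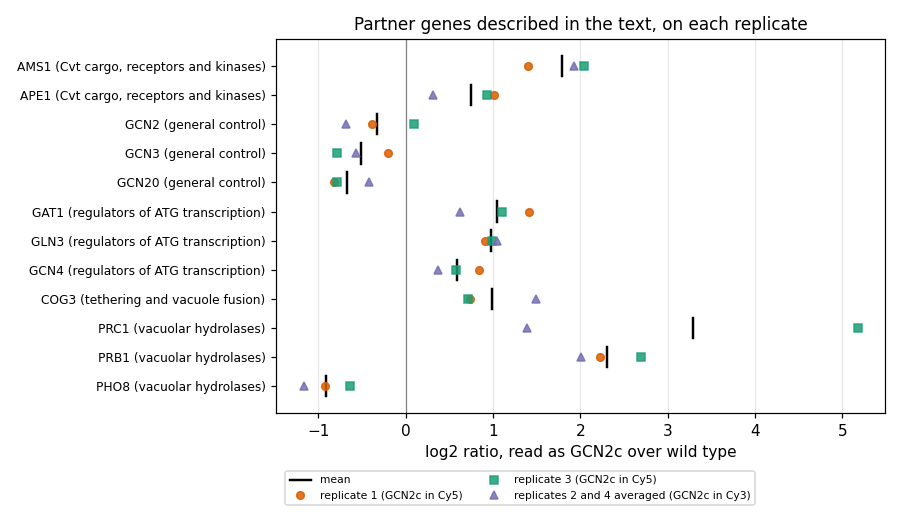
Log2 ratio, read as GCN2c over wild type (horizontal axis), of the 12 partner genes described by replicate, with the list of each in parentheses and symbols as for the ATG genes. AMS1 and PRB1, the 2 that passed, lie above 1 on every replicate, GLN3 has 3 nearly equal values, and PRC1 has 2 values far apart.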

How the data were processed

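RNA of the strain labelled GCN2c and of wild type was compared on 2-colour arrays. Per the labels, the authors flagged spots with defects or with a background-subtracted median not above 2 times the local background in both channels. The deposited values were 1 ratio per open reading frame and array, read as log2. The log base, direction, background correction and normalization are not given in the sources used here. No spot intensities were examined.

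Names were matched to the R64 gene table without regard to case (5662 of 6211). Replicates 2 and 4, with GCN2c in Cy3, were averaged to 1 replicate: 97.52% of 6136 differences lay within 0.01 of a constant 0.004. Arrays of opposite dye correlated positively as deposited (median r = 0.237), and no array was turned. Gene-specific dye bias in Cy5 over Cy3 ratios would correlate the same way and was not tested, so the sign of replicates 2 and 4 against the others is assumed. Genes with values on at least 3 of 4 arrays were fitted with an intercept alone by limma 3.58.1 under R 4.3.3 (moderated by empirical Bayes, 2 residual and 3.37 prior degrees of freedom), with Benjamini-Hochberg adjustment over 6130 genes and a threshold of 0.05. The script was tested on simulated data. Alternatives were other scalings, filters, signs and sets of arrays, a dye term, and one-class SAM, the test the design text names. The text gives values by array for members past the threshold or at an unadjusted p under 0.05, the 3 highest and 3 lowest, and ATG1, ATG8 and ATG9. Outside this rule, ATG29 and ATG41 are given by array as well. For partners it does so for called genes and all others at an unadjusted p under 0.05, with GCN2 and GCN4. ATG members, partner lists and tests were chosen with earlier results of these data known.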

Additional observations from a re-analysis of the deposited data

How the results depend on the processing

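The ATG median of 0.29 (all genes -0.06) was 0.27 to 0.45 when 1 array, 1 or 3 or either of 2 and 4, was left out, and 0.26 without both of the latter. It was 0.39 with the 4 columns as 4 replicates or with a dye term, and 0.11 with replicates 2 and 4 turned, where the median of all genes was 0.03 and 23 of 36 members were above 0. The count of ATG genes past the threshold was 0 to 0 without single replicates and 0 with replicates 2 and 4 turned. It was 2 without both arrays with GCN2c in Cy3, 6 with a dye term and 11 with the 4 columns as 4 replicates. Partners past it, 2 as reported, numbered 1 to 3 without single replicates, and 5, 7 and 9 under those last 3 settings, and 0 with replicates 2 and 4 turned. Over all genes the 126 called became 74 to 148 without single replicates, 353, 590 and 1062 under the same 3 settings, 191 on genes with all 4 values, 200 by SAM and 0 with replicates 2 and 4 turned. Turning those replicates changed the sign of 13 of the 36 ATG means, 10 to below 0 and 3 to above. Among genes given by array these were ATG14 (-0.16), ATG22 (0.26) and ATG29 (-1.09), and beside them COG3 (-0.015) and GCN2 (0.13). The others were ATG7, ATG10, ATG11, ATG13, ATG15, ATG27, ATG31, ATG32, ATG38 and ATG45, with ATG10 the highest at 0.31. ATG16 ran from -0.49 to 0.14 when 1 array was left out, above 0 without replicate 3, and was -0.73 without replicates 2 and 4. Leaving out both arrays with GCN2c in Cy3 changed the sign of 7 ATG means. The cause of these changes was not tested, beyond the fewer arrays or the doubled pair that define them. Without intensities, spots near background cannot be told from bright ones.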
